A study of Saccharomyces cerevisiae with 12 samples.

Results

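The nuclear genes of the mitochondrial respiratory chain and ATP synthase were followed in Saccharomyces cerevisiae exposed to alachlor, a chloroacetanilide herbicide. The 35 genes were taken from a list of subunits by name, drawn up with earlier results of these data known, with 3 NADH dehydrogenases, 9 genes of complex III, 2 of cytochrome c, 9 of complex IV and 12 of ATP synthase, out of 5449 genes measured. Each of the 35 had 1 probe set on the array, marked as unique by the manufacturer, and none was lost to a filter on low values. All cultures were of the strain BY4741, haploid cells of mating type a that lack LEU2, URA3, MET17 and part of HIS3, grown in minimal medium. The 4 groups were cultures with 110 mg/L alachlor for 2 h, the dose called the LOEC, with untreated controls of the same experiment (LOEC controls), and cultures with 200 mg/L alachlor for 2 h, the dose called the IC20, with untreated controls of that experiment (IC20 controls). Each group had 3 biological replicates, 1 Affymetrix array each, and the number of arrays limits the precision. The 2 doses were run as separate experiments, so dose and experiment cannot be told apart.

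Yeast has no proton-pumping complex I. Electrons from NADH enter the chain through single-protein dehydrogenases, pass by ubiquinone to complex III, by cytochrome c to complex IV (cytochrome c oxidase), and the proton gradient built by complexes III and IV drives ATP synthase. In glucose many of these genes are held down and are activated by the Hap2/3/4/5 complex and by Hap1 when glucose runs low or heme is made. Subunit V of complex IV and cytochrome c each have an aerobic form, COX5A and CYC1, and a form favoured at low oxygen, COX5B and CYC7. The repressor Rox1 holds COX5B down when oxygen is present.

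Values are intensities of a probe set on a linear scale, as deposited. Array medians lay between 1561 and 1613. The reading of one probe set is not comparable with that of another, so only the same gene is compared between arrays. LEU2, URA3 and MET17 read at most 228.8, which serves here as the level of an absent transcript. HIS3, deleted only in part, read 6721 to 9552, and the mating type a genes MFA1, MFA2 and STE2 read at least 15341. Of the mating type alpha genes, MF(ALPHA)1 and STE3 read at most 40.69 and 197.67. MF(ALPHA)2 read 163.21 to 377.2, partly above 228.8, so an absent transcript may read above that level. Changes are log2 of treated over control from limma, with all 12 arrays sharing the estimate of the spread. A gene passed at an adjusted p under 0.05 (Benjamini-Hochberg over the 5449 genes). In the IC20 experiment the deviation of an array from its group mean followed gene length, with Spearman's rho across genes of -0.488 to 0.570, against -0.0777 to 0.152 in the LOEC experiment. The 35 genes are short, with a median length of 447 bases against 1236 for all genes, so each call of a member at 200 mg/L is given below with that trend removed where it changed. Arrays measure abundance relative to total RNA, and fewer cells with a transcript and less transcript per cell cannot be told apart.

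Most subunit genes stayed close to their controls at both doses. With 110 mg/L 0 of 35 rose and 1 fell, COX5B, by limma, where 3.05% of all genes rose and 1.21% fell. There 4 of the 35 had an unadjusted p under 0.05 in limma, beside 890 of all 5449 genes. At 200 mg/L 2 rose, COX12 and ATP3, and 4 fell, COX5B, NDE1, CYT1 and COX8, where 10% of all genes rose and 7.8% fell. Read against these shares, the counts among the 35 are near the background. The median log2 change of the 35 was 0.0012 for 110 mg/L and -0.0035 for 200 mg/L. Over all genes it was 0.0052 and 0.00021. Of the 34 genes that read above the deleted loci on at least 1 array, 33 had, at each dose, a 95% interval of the change inside 1.5-fold in either direction (intervals not adjusted for the number of genes). The exception was COR1, for which 1 array stood apart, and without that array its intervals lay inside too. The 33 include CYC7, which is poorly measured. All intervals share 1 spread over both experiments, and may be too narrow at 200 mg/L, where arrays spread more. NDI1 at 200 mg/L came close to the limit, with an upper bound of 0.576 on the log2 scale. Its log2 SD was 0.24 at 200 mg/L and 0.32 in the IC20 controls.

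**Figure D1:**
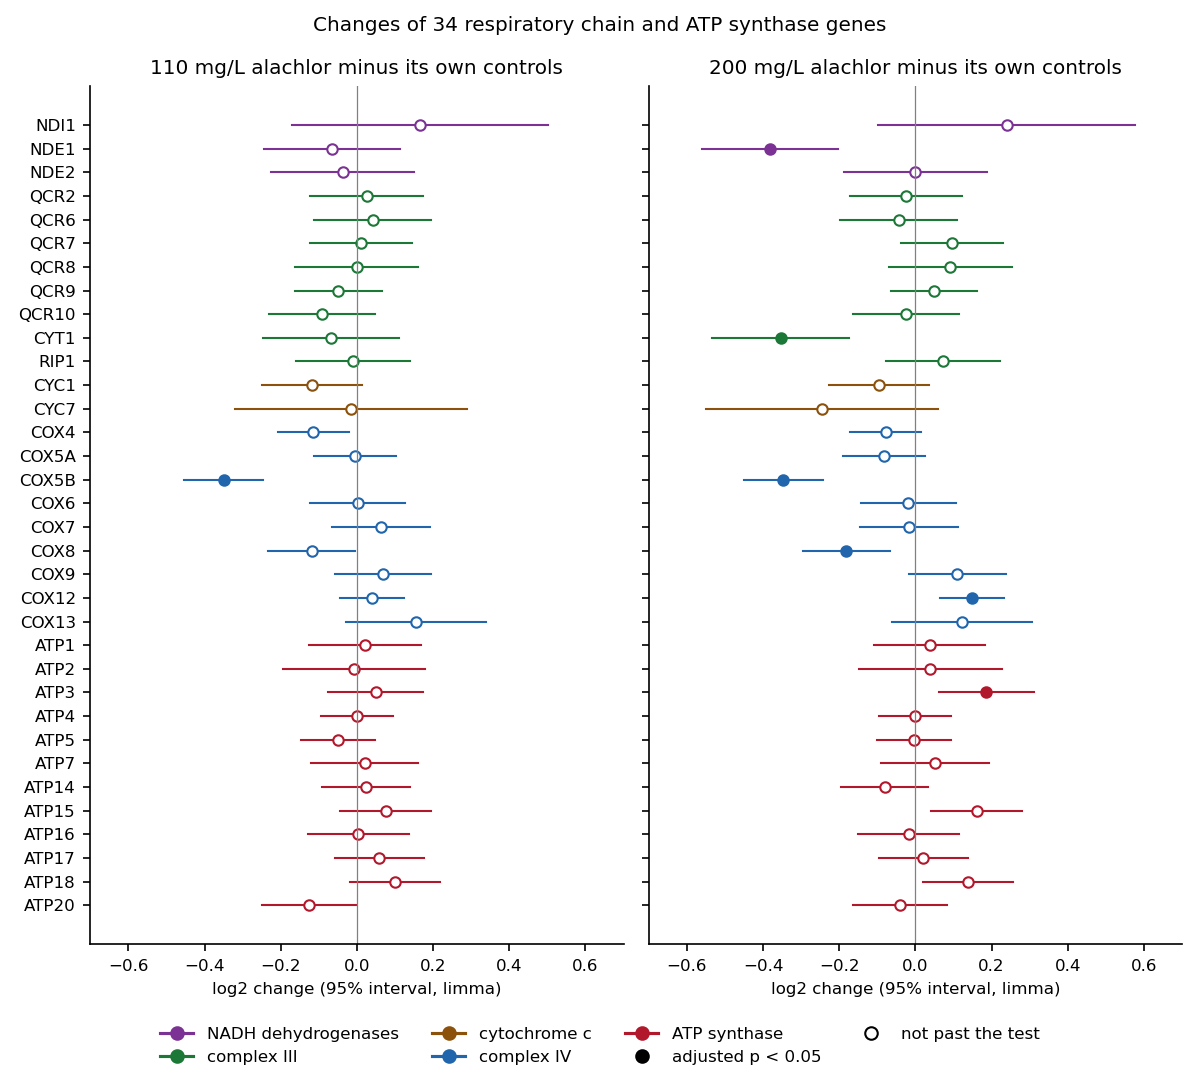
Log2 change of 34 genes at 110 mg/L (left) and 200 mg/L (right), each against its own 3 controls, with the 95% interval from limma. Filled points passed the test. COX5B at -0.35 is the filled point at both doses, and most other intervals cross 0. COR1 is left out here and shown in the plot of array readings.

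Among the NADH dehydrogenases, which hand electrons of NADH to ubiquinone, NDE1 fell at 200 mg/L. NDE1 (YMR145C), the main external enzyme that oxidizes cytosolic NADH, read 4555, 5394 and 5584 at 200 mg/L, against 7328, 6041 and 6864 in the IC20 controls. All 3 treated arrays lay below all 3 controls. Its log2 change was -0.38 (SE 0.081, adjusted p = 0.00807), to 0.767 of the control level. With 110 mg/L it read 6381, 6321 and 6438, against 6683, 6726 and 6618 in the LOEC controls, again without overlap, but the log2 change of -0.065 did not pass (adjusted p = 0.807). The difference between the doses, -0.32, did not pass either (adjusted p = 0.306), so the fall is not shown to depend on the dose. The call at 200 mg/L was lost in a fit of the 6 IC20 arrays alone (adjusted p = 0.0762).

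NDI1 (YML120C), the internal enzyme that oxidizes matrix NADH, read 930, 1182 and 1276 at 200 mg/L, against 993, 745 and 1153 in the IC20 controls. With 110 mg/L it read 1107, 988 and 1058, against 869, 926 and 1019 in the LOEC controls. The groups overlap in both experiments. The log2 change was 0.24 (SE 0.15, adjusted p = 0.319) at 200 mg/L and 0.17 (adjusted p = 0.704) at 110 mg/L, the largest positive values among the 35. NDE2 (YDL085W), the second external enzyme, read 113 to 138 over all 12 arrays, below the level of the deleted loci, so that no change could be measured for it.

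Complex III passes electrons from ubiquinol to cytochrome c, and its gene CYT1 fell at 200 mg/L. CYT1 (YOR065W), the cytochrome c1 subunit, which carries a heme, read 1844, 1728 and 1595 at 200 mg/L, against 1998, 2235 and 2376 in the IC20 controls. No treated array reached the lowest control. The log2 change was -0.35 (SE 0.081, adjusted p = 0.0127). The 110 mg/L arrays read 1897, 1688 and 2023, against 1993, 1907 and 1965 in the LOEC controls, which overlap, with a log2 change of -0.068 (adjusted p = 0.801). The IC20 controls of CYT1 read above all LOEC controls, by a log2 difference of 0.17 that did not pass (adjusted p = 0.374), and the difference between the doses was -0.29 (adjusted p = 0.384). A fit of the 6 IC20 arrays alone lost the call (adjusted p = 0.0542).

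The other complex III genes did not pass at either dose. RIP1, the Rieske iron-sulfur protein, averaged 3733 ± 228 with 200 mg/L, against 3559 ± 340 in its IC20 controls, and 3002 ± 9.97 with 110 mg/L, against 3023 ± 80.9 in its LOEC controls (SD, n = 3 each). All IC20 controls of RIP1 read above all LOEC controls, by 0.23 on the log2 scale, which did not pass (adjusted p = 0.166). The core protein gene QCR2 had log2 changes of 0.025 at 110 mg/L and -0.025 at 200 mg/L. The small subunits QCR6, QCR7, QCR8, QCR9 and QCR10 ranged from -0.091 (QCR10) to 0.041 (QCR6) at 110 mg/L and from -0.044 (QCR6) to 0.095 (QCR7) at 200 mg/L.

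COR1 (YBL045C), the other core protein, read 2192, 2483 and 2610 at 200 mg/L, against 2494, 2276 and 19959 in the IC20 controls. IC20 control array 3 thus stood 7.50 times above the next highest of the 12 arrays, 2660, while the other 11 lay between 2184 and that value. The log2 change at 200 mg/L was -0.999 (SE 0.63, adjusted p = 0.312) with all arrays and 0.024 (SE 0.086, adjusted p = 0.891) without that array, with a 95% interval of -0.17 to 0.22. COR1 at 110 mg/L read 2364, 2184 and 2245, against 2308, 2410 and 2660 in the LOEC controls, a log2 change of -0.12 (SE 0.63, adjusted p = 0.971 with all arrays, and SE 0.077, adjusted p = 0.537 with a 95% interval of -0.29 to 0.055 without IC20 control array 3).

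**Figure D2:**
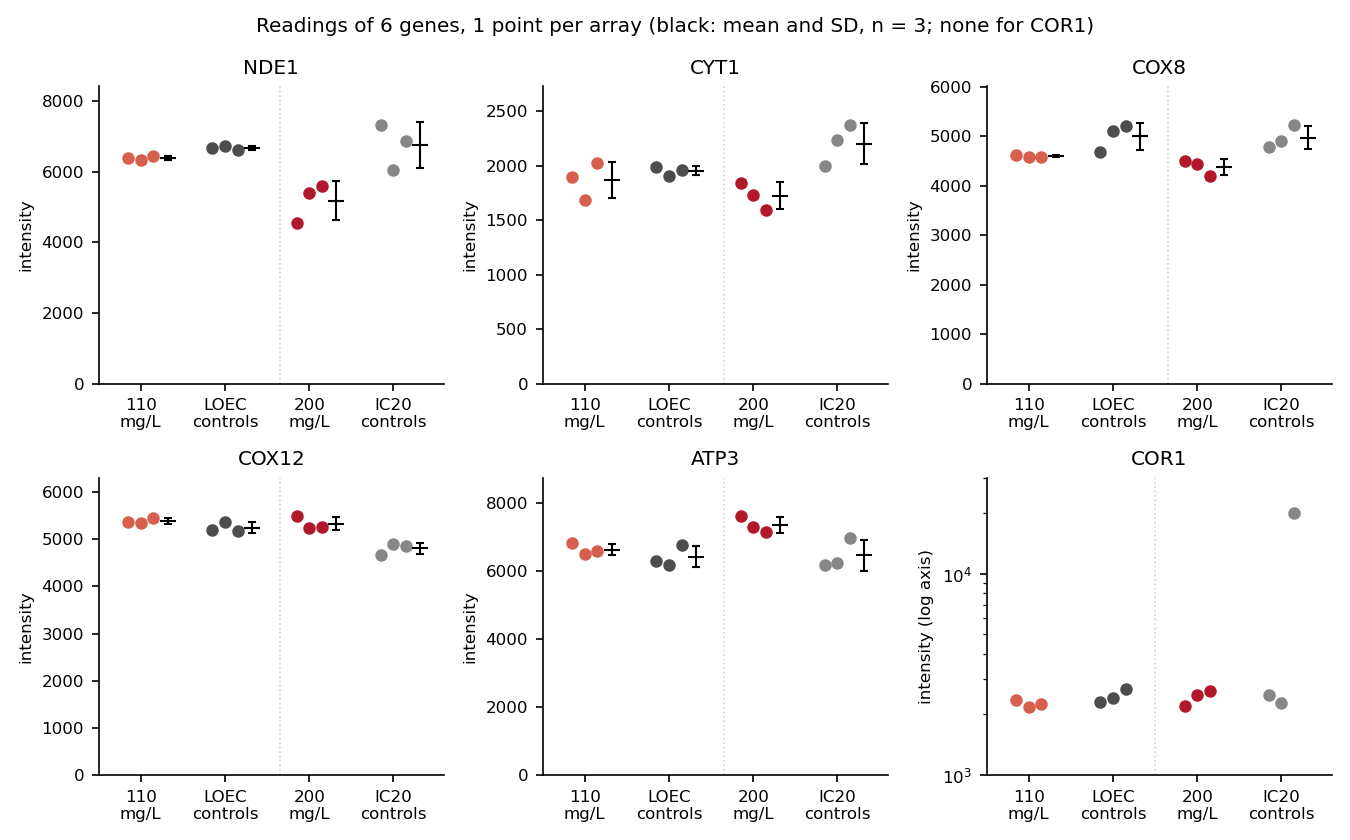
Intensity of NDE1, CYT1, COX8, COX12, ATP3 and COR1 on each array, with groups from left to right of 110 mg/L, LOEC controls, 200 mg/L and IC20 controls (mean and SD in black, n = 3; COR1 on a log axis with no mean). In the first 5 genes the 200 mg/L arrays lie apart from the IC20 controls, and in COR1 a single control array reads 19959.

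Cytochrome c carries electrons from complex III to complex IV, and neither of its genes passed. CYC1 (YJR048W), the aerobic form, read 2951, 2883 and 2763 at 110 mg/L, against 2968, 3178 and 3186 in the LOEC controls. The treated arrays lay below the controls, the nearest by little, and the log2 change of -0.12 did not pass (adjusted p = 0.368). The 200 mg/L arrays read 3226, 3011 and 3141, against 3057, 3448 and 3537 in the IC20 controls, which overlap (log2 change -0.096, adjusted p = 0.301). CYC7 (YEL039C), the low-oxygen form, read 276, 273 and 205 at 110 mg/L, against 227, 233 and 303 in the LOEC controls, and 202, 217 and 235 at 200 mg/L, against 260, 233 and 284 in the IC20 controls. All 12 CYC7 readings lay below 377.2, the highest reading of MF(ALPHA)2. On 4 of the 12 arrays, 2 of them at 200 mg/L, CYC7 was at or below the level of the deleted loci, so its changes are poorly measured. Its log2 changes were -0.016 (adjusted p = 0.981) and -0.25 (adjusted p = 0.254).

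Complex IV, which passes electrons to oxygen, held the gene with the clearest change. COX5B (YIL111W), the low-oxygen form of subunit V, read 2094, 2052 and 1997 at 110 mg/L, against 2590, 2663 and 2577 in the LOEC controls. With 200 mg/L it read 1958, 1819 and 1791, against 2308, 2478 and 2295 in the IC20 controls. In both experiments every treated array lay below every control. The log2 change was -0.35 at 110 mg/L (SE 0.047, adjusted p = 0.00132) and -0.35 at 200 mg/L (SE 0.047, adjusted p = 0.000556), to 0.784 and 0.786 of the control level. The 2 changes differed by 0.0036 on the log2 scale (SE 0.067, adjusted p = 0.990). COX5B passed at both doses in each of 16 alternative fits per dose. It also read lower in all IC20 controls than in all LOEC controls, by -0.15 (adjusted p = 0.193).

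COX5A (YNL052W), the aerobic form of the same subunit, read 6658, 6706 and 6389 at 110 mg/L, against 6567, 6333 and 6944 in the LOEC controls, and 7009, 6495 and 6537 at 200 mg/L, against 6920, 6988 and 7313 in the IC20 controls. The groups overlapped in both experiments. The log2 changes were -0.0059 (95% interval -0.11 to 0.10, adjusted p = 0.978) and -0.083 (95% interval -0.19 to 0.024, adjusted p = 0.276).

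The ratio of COX5A to COX5B within each array tests whether the 2 forms changed unequally. Its size depends on the probes and does not say which transcript was more abundant. The log2 ratio was 1.68 ± 0.021 at 110 mg/L and 1.34 ± 0.090 in the LOEC controls, and 1.85 ± 0.017 at 200 mg/L and 1.58 ± 0.088 in the IC20 controls (SD, n = 3 each). It was higher in all treated arrays of each experiment, by 0.34 (SE 0.053) and 0.26 (SE 0.052). The exact two-sided permutation test gave p = 0.1 in each experiment, the smallest that 3 arrays against 3 allow. That test cannot pass 0.05 in this design. The log2 ratio of CYC1 to CYC7 was 3.52 ± 0.20 at 110 mg/L and 3.63 ± 0.20 in the LOEC controls, and 3.84 ± 0.14 at 200 mg/L and 3.69 ± 0.17 in the IC20 controls (SD, n = 3 each). Its groups overlapped in both experiments. With CYC7 near the level of the deleted loci this ratio is given as a description with no test, and it does not show whether the cytochrome c genes changed alike.

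**Figure D3:**
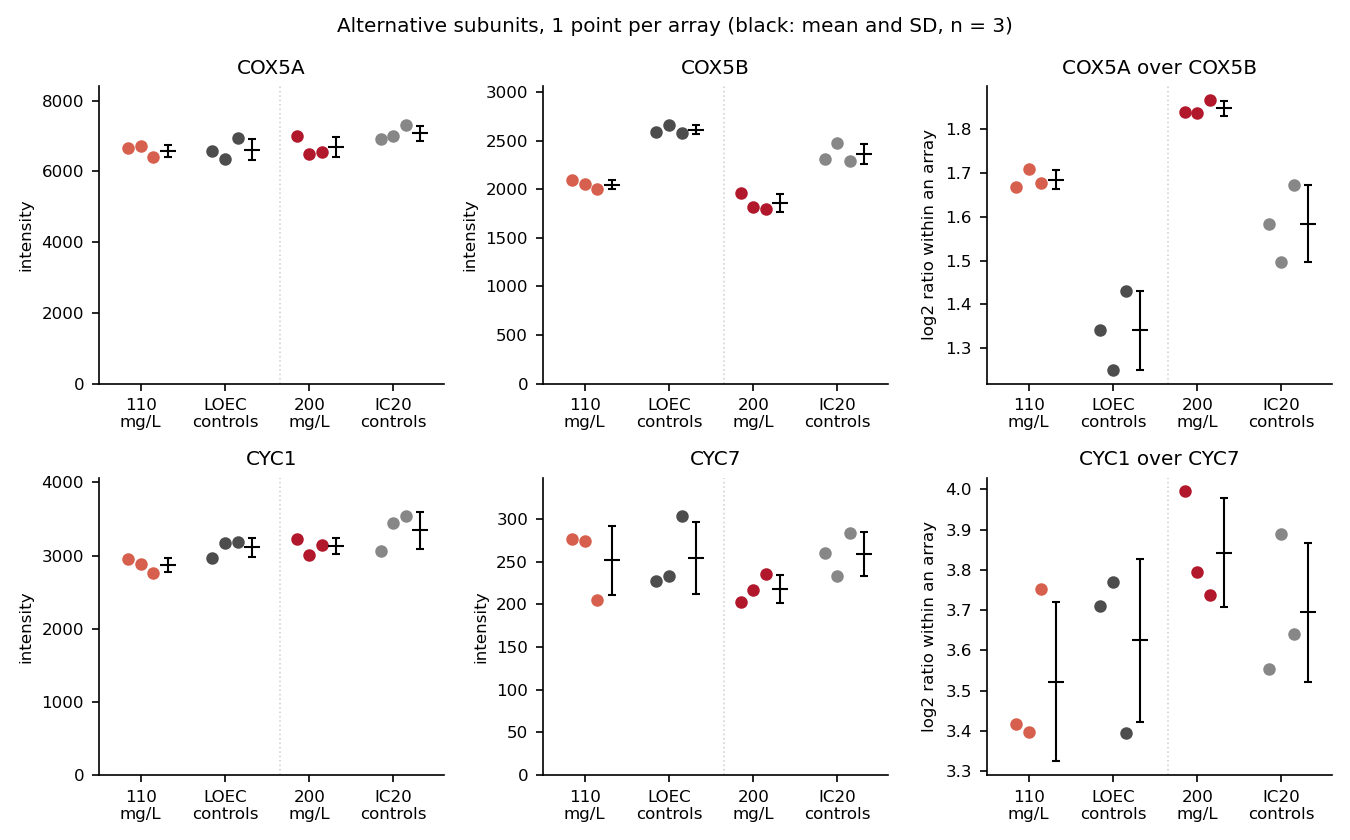
Intensities of COX5A, COX5B, CYC1 and CYC7 and the log2 ratio of each pair, 1 point per array, with groups from left to right of 110 mg/L, LOEC controls, 200 mg/L and IC20 controls (mean and SD in black, n = 3). COX5B lies lower in the treated arrays of both experiments while COX5A overlaps, so the ratio lies higher, at 1.68 and 1.85, against 1.34 and 1.58 in the controls. Ratio axes do not start at 0.

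COX8 and COX12 were the other complex IV genes past the test, in opposite directions and only at 200 mg/L. COX8 (YLR395C), a small subunit, read 4507, 4436 and 4196 at 200 mg/L, against 4780, 4895 and 5230 in the IC20 controls. The groups did not overlap, and the log2 change was -0.18 (SE 0.052, adjusted p = 0.0349). COX8 at 110 mg/L read 4622, 4579 and 4585, against 4679, 5109 and 5202 in the LOEC controls, below all controls but not past the test (log2 change -0.12, adjusted p = 0.285). The call at 200 mg/L was lost with the length trend removed (-0.14, adjusted p = 0.0590), in a fit of the 6 IC20 arrays (adjusted p = 0.120), and without IC20 control array 2 or 3 or 200 mg/L array 2 or 3 (adjusted p = 0.0649, 0.115, 0.0672 and 0.102). It was also lost without LOEC control array 2 or 110 mg/L array 1 or 2, which enter only through the shared spread.

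COX12 (YLR038C), a small subunit that faces the intermembrane space, read 5487, 5231 and 5265 at 200 mg/L, against 4666, 4893 and 4860 in the IC20 controls. It was higher in all 3 treated arrays, with a log2 change of 0.15 (SE 0.038, adjusted p = 0.0207). The 110 mg/L arrays read 5366, 5349 and 5459, against 5186, 5373 and 5173 in the LOEC controls (log2 change 0.040, adjusted p = 0.716). The 200 mg/L arrays thus read within 5231 to 5487, near the LOEC controls, while the IC20 controls read below all LOEC controls, by -0.13 (adjusted p = 0.170). The call was lost in a fit of the 6 IC20 arrays (adjusted p = 0.132), and without IC20 control array 1 (adjusted p = 0.0757) or 200 mg/L array 1 (adjusted p = 0.0560).

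The remaining complex IV genes did not pass. COX4, COX6, COX7, COX9 and COX13 encode nuclear subunits around the mitochondrially encoded core. COX13 was higher in all 3 arrays at 110 mg/L than in the LOEC controls, with means of 4489 ± 114 and 4035 ± 136 (SD, n = 3 each; log2 change 0.15, adjusted p = 0.410), and COX4 was lower in all 3, with 5483 ± 112 and 5935 ± 63.4 (log2 change -0.11, adjusted p = 0.192). At 200 mg/L these 5 genes ranged from -0.078 (COX4) to 0.12 (COX13). The core subunits COX1, COX2 and COX3, like the other mitochondrially encoded genes, were not analysed here.

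Among the 12 ATP synthase genes, ATP3 rose at 200 mg/L. ATP3 (YBR039W) encodes the gamma subunit, the central stalk that turns inside the catalytic head. It read 7613, 7289 and 7147 at 200 mg/L, against 6172, 6244 and 6985 in the IC20 controls. All treated arrays lay above the controls, the nearest pair by little. The log2 change was 0.19 (SE 0.056, adjusted p = 0.0430). With 110 mg/L it read 6821, 6496 and 6588, against 6287, 6192 and 6769 in the LOEC controls, which overlap (log2 change 0.049, adjusted p = 0.788). This call was lost with quantile normalization (0.16, adjusted p = 0.0630), with median centring (0.17, adjusted p = 0.0604), in a fit of the 6 IC20 arrays (adjusted p = 0.144), and without IC20 control array 1 or 2 or 200 mg/L array 1, 2 or 3 (adjusted p = 0.136, 0.127, 0.105, 0.0877 and 0.0566). It was also lost without LOEC control array 1 or 2 or any of the 110 mg/L arrays, which enter only through the shared spread.

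ATP1 (alpha) and ATP2 (beta), subunits of the catalytic head, did not pass at either dose. The log2 changes at 110 and 200 mg/L were 0.022 and 0.037 for ATP1 and -0.0082 and 0.040 for ATP2. ATP1 averaged 17127 ± 1176 with 200 mg/L, against 16707 ± 1430 in its IC20 controls, and 16582 ± 382 with 110 mg/L, against 16335 ± 233 in its LOEC controls (SD, n = 3 each). ATP2 averaged 13561 ± 1179 with 200 mg/L, against 13219 ± 1475 in its IC20 controls, and 12188 ± 543 with 110 mg/L, against 12253 ± 398 in its LOEC controls. Both are long genes, and within their groups both read lowest on 200 mg/L array 1 and IC20 control array 2, the arrays with the most negative trend with gene length (rho -0.488 and -0.464).

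Of the other subunits, ATP15 (epsilon) and ATP18 (a small subunit of the membrane part) read higher on all treated arrays than on all controls in both experiments without passing. ATP15 had 9537, 8456 and 8496 at 200 mg/L, against 7615, 8257 and 7799 in the IC20 controls (log2 change 0.16, adjusted p = 0.0662). Its log2 change with 110 mg/L was 0.075 (adjusted p = 0.585). ATP18 had log2 changes of 0.14 (adjusted p = 0.101) at 200 mg/L and 0.099 (adjusted p = 0.409) at 110 mg/L. With the length trend removed both passed at 200 mg/L (0.21 and 0.19, adjusted p = 0.00308 and 0.0139). ATP4, ATP5 and ATP7 of the peripheral stalk ranged from -0.049 to 0.021 at 110 mg/L and from -0.0035 to 0.051 at 200 mg/L. ATP14, ATP16 (delta), ATP17 and ATP20 ranged from -0.13 (ATP20) to 0.059 (ATP17) at 110 mg/L and from -0.081 (ATP14) to 0.021 (ATP17) at 200 mg/L.

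Set beside each other, the larger complexes had medians near 0. The median log2 change at 110 mg/L was -0.0095 for complex III, 0.0020 for complex IV and 0.021 for ATP synthase. The medians at 200 mg/L were -0.025, -0.018 and 0.029 in the same order. No median is set beside these for the NADH dehydrogenases and cytochrome c, which are few and include NDE2 and CYC7, at or near the level of the deleted loci. The complex III value was 0.024 without the IC20 control array that stands apart for COR1. ATP synthase had positive values in 9 of its 12 genes with 110 mg/L and in 7 with 200 mg/L, and complex IV in 5 and 3 of its 9.

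All 3 treated arrays lay above all 3 controls in 3 members and below them in 7 at 110 mg/L, where 15.4% and 12.2% of all genes did so. With 200 mg/L the numbers were 4 and 4, beside 16.3% and 14.5%. NDE1, COX5B and COX8 lay below their controls without overlap at both doses, and ATP15 and ATP18 above them. The share of all genes that did so at both doses was not counted, so this is a description only. Across the 35 genes the changes at the 2 doses, which have separate controls, had Spearman's rho of 0.716 (0.537 across all genes), with the same sign in 24 of 35 (69.9% of all genes). Pearson's r was 0.603, or 0.704 without COR1, against 0.646 across all genes. Genes are not independent replicates and no test is given.

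The difference of the responses, 200 mg/L minus 110 mg/L, passed in 0 of 35 members by limma, where 0.991% of all genes passed upward and 0.257% downward. For this difference 2 members had an unadjusted p under 0.05, beside 576 of all 5449 genes. Untreated cultures of the 2 experiments, IC20 minus LOEC controls, differed in 0 members by limma, where 0.587% of all genes were higher and 0.202% lower. Between these controls 5 members had an unadjusted p under 0.05, beside 792 of all 5449 genes. Within a group the members had a median SD (log2) of 0.048 at 110 mg/L and 0.049 in the LOEC controls, and 0.069 at 200 mg/L and 0.076 in the IC20 controls. The arrays of the IC20 experiment thus spread more, while the fit gives a gene the same SE at both doses, since it shares 1 spread over both experiments.

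Genes around the complexes were described from lists of related function, whose counts are read against the shares of all genes given above, 3.05% higher and 1.21% lower at 110 mg/L and 10% higher and 7.8% lower at 200 mg/L. For ATP synthase, INH1, which encodes the inhibitor that stops the enzyme from hydrolysing ATP, fell at both doses. INH1 (YDL181W) read 766, 775 and 903 at 110 mg/L, against 1027, 1075 and 1048 in the LOEC controls, and 807, 734 and 720 at 200 mg/L, against 995, 1090 and 964 in the IC20 controls. No treated array reached a control. The log2 changes were -0.37 (SE 0.073, adjusted p = 0.0161) and -0.43 (SE 0.073, adjusted p = 0.00205). The first was lost in 4 of 16 alternative fits, among them those without LOEC control array 2 and without 110 mg/L array 1 or 2 (adjusted p up to 0.0837), and the second in 0 of 16. STF1, a related inhibitor protein, rose at 200 mg/L, reading 1935, 1743 and 1531, against 1267, 1457 and 1436 in the IC20 controls (log2 change 0.32, SE 0.087, adjusted p = 0.0283, lost in 6 of 16 alternative fits). STF2 (0.12 and 0.19), TIM11 (-0.0022 and -0.0073) and ATP19 (-0.0012 and -0.015) did not pass at 110 or 200 mg/L. With the length trend removed 2 of these 5 genes rose and 1 fell at 200 mg/L.

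Assembly factors of complex IV, which insert its copper and heme and translate or fold its subunits, lay mostly below their controls at 200 mg/L. Of 22 such genes 0 rose and 7 fell, where 10% of all genes rose and 7.8% fell. Negative values were found in 20, and the median log2 change was -0.18, beside 0.00021 for all genes. In 17 of the 22 the IC20 controls read above the LOEC controls, with a median log2 difference of 0.088, and the part of this in the result was not tested. For 110 mg/L 0 rose and 1 fell, with a median of -0.077. COX17 (YLL009C), the copper chaperone of the oxidase, fell at both doses. It read 2185, 2321 and 2150 at 110 mg/L, against 2836, 2757 and 2710 in the LOEC controls, and 2378, 2252 and 2202 at 200 mg/L, against 2654, 2743 and 2552 in the IC20 controls. Every treated array lay below every control in both experiments, with log2 changes of -0.32 (SE 0.047, adjusted p = 0.0024) and -0.22 (SE 0.047, adjusted p = 0.00919). COX23 (-0.41, adjusted p = 0.0281, lost in 6 of 15 alternative fits) and PET117 (-0.40, adjusted p = 0.0117, lost in 2 of 16) had the largest falls of the list at 200 mg/L. Each of the 7 calls was lost in a fit of the 6 IC20 arrays alone, that of COX17 with an adjusted p of 0.0658. With the length trend removed 6 fell at 200 mg/L, as PET54 was lost.

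The assembly lists of the other complexes held fewer calls, but also fewer genes, 9 and 10 against 22. Of 9 complex III assembly genes 0 rose and 2 fell at 200 mg/L, CBP6 (-0.21, lost in 7 of 16 alternative fits) and BCS1 (-0.20, lost in 4), with a median of -0.11, and at 110 mg/L 0 rose and 1 fell, MZM1 (-0.15, adjusted p = 0.0455, lost in 10 of 16 alternative fits). Of 10 ATP synthase assembly genes 0 rose and 2 fell at 200 mg/L, with a median of -0.10. They were ATP12, a chaperone of the alpha subunit, at 1823, 2043 and 1834, against 2380, 2205 and 2378 in the IC20 controls (-0.29, SE 0.054, adjusted p = 0.00398), and FMC1 (-0.27, adjusted p = 0.0226), lost in 0 and 6 of 16 alternative fits. With 110 mg/L 0 of the 10 passed by limma, and 3 had an unadjusted p under 0.05, beside 890 of all 5449 genes.

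Of the 4 genes of complex II, which oxidizes succinate, 2 rose and 0 fell at 200 mg/L, where 10% of all genes rose and 7.8% fell. Its subunits were not tested against each other. The membrane anchor genes SDH3 and SDH4 rose at 200 mg/L, while SDH1 and SDH2 had values of -0.13 and -0.064 that did not pass. SDH3 averaged 7707 ± 206 at 200 mg/L and 6958 ± 69 in the IC20 controls, and SDH4 5531 ± 262 and 4723 ± 215 (SD, n = 3 each), with log2 changes of 0.15 and 0.23 (adjusted p = 0.0297 and 0.0179). Neither passed at 110 mg/L. The call of SDH3 was lost in 10 of 16 alternative fits and that of SDH4 in 5. Both were lost in a fit of the 6 IC20 arrays and with the replicate number as a block. Both were also lost without IC20 control array 1 or 3 or 200 mg/L array 1, and that of SDH3 also with both scalings. With the length trend removed 2 of the 4 complex II genes rose and 1 fell at 200 mg/L.

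**Figure D4:**
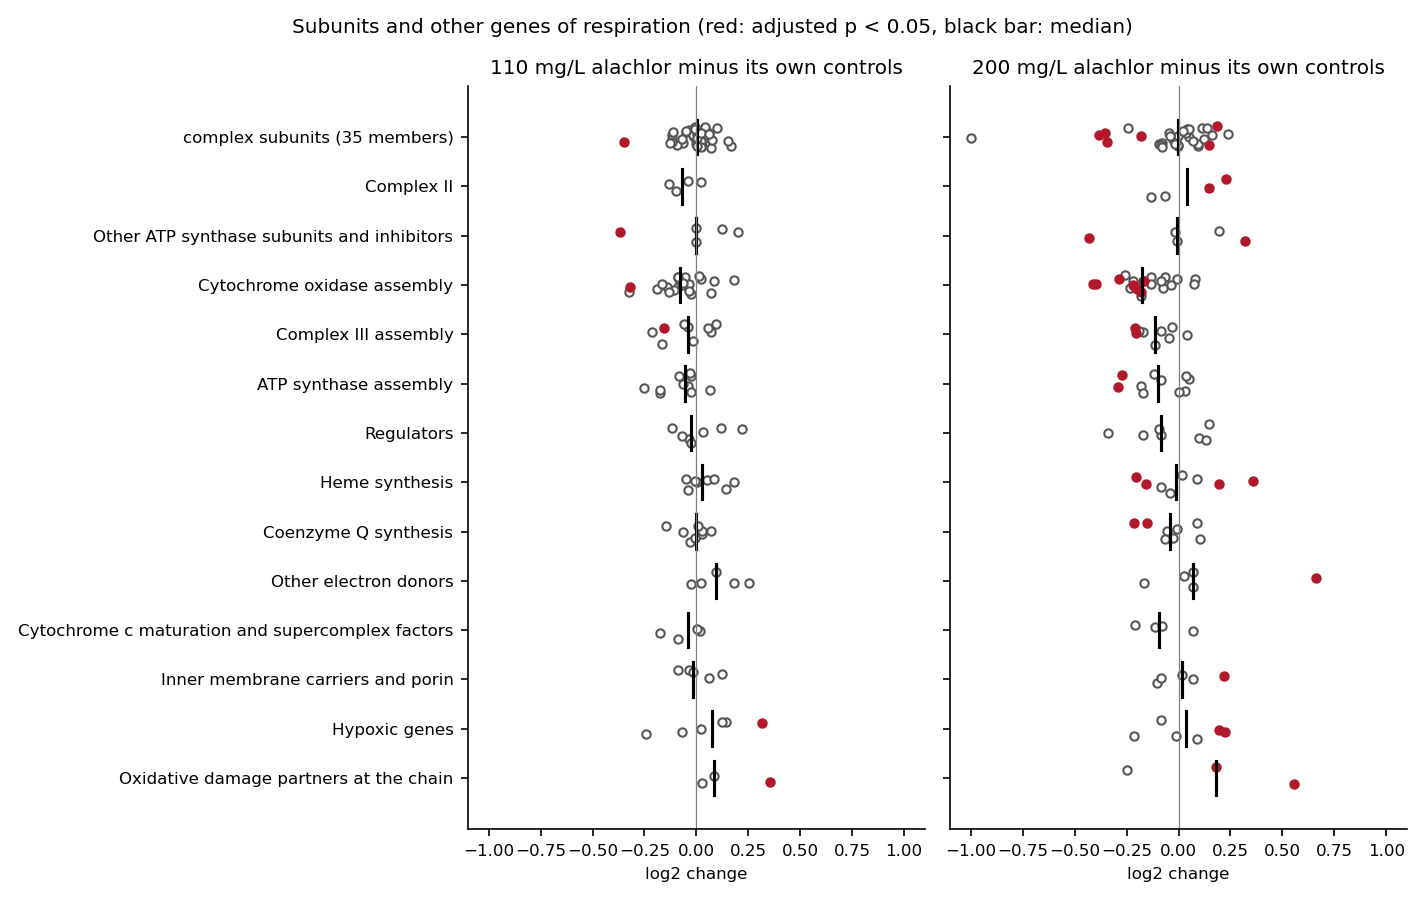
Log2 change of the 35 subunit genes and of the genes of 13 related lists at 110 mg/L (left) and 200 mg/L (right), each against its own controls, 1 point per gene. Red points passed the test and black bars are medians. The medians of the 3 assembly lists lie left of 0 at 200 mg/L, at -0.18, -0.11 and -0.10, with genes on both sides in each, and the point at -0.999 among the subunits is COR1.

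None of 7 regulator genes passed at either dose by limma. An unadjusted p under 0.05 was found for 0 at 110 mg/L and 4 at 200 mg/L, beside 890 and 1716 of all 5449 genes. At 200 mg/L 1 of the 7 fell with median centring, and 1 with an intensity trend and robust moderation. HAP4, the activating subunit of the Hap complex, had log2 changes of -0.12 (adjusted p = 0.429) and -0.17 (adjusted p = 0.0969), and HAP1 had 0.12 (adjusted p = 0.425) and 0.15 (adjusted p = 0.154). ROX1, the repressor of low-oxygen genes, had 0.22 (adjusted p = 0.410) and 0.13 (adjusted p = 0.483). MOT3, a second such repressor, had -0.34 (adjusted p = 0.0543) at 200 mg/L.

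Of 6 other low-oxygen genes 1 rose and 0 fell at 110 mg/L, and 2 rose and 0 fell at 200 mg/L, where 10% of all genes rose and 7.8% fell. At 200 mg/L 3 of the 6 had positive and 3 negative values. ANB1, a translation factor gene whose sequence is close to that of its aerobic partner HYP2, read 3743, 3757 and 4150 at 110 mg/L, against 3140, 3181 and 3039 in the LOEC controls (log2 change 0.31, SE 0.065, adjusted p = 0.0218). With 200 mg/L it read 3613, 3456 and 3198, against 2778, 3171 and 2835 in the IC20 controls (0.23, adjusted p = 0.0364). HEM13, of heme synthesis, had log2 changes of 0.14 (adjusted p = 0.231) and 0.19 (adjusted p = 0.0372), and AAC3, an ADP/ATP carrier, 0.13 and -0.085, neither past the test. The cell wall gene TIR1 had 0.023 and -0.22 (adjusted p = 0.959 and 0.129) and the sterol transporter gene AUS1 -0.070 and 0.090, which did not pass either, and DAN1, with group means of 40.5 to 48.8, lay below the level of the deleted loci. The calls of ANB1 were lost in 6 and 8 of 16 alternative fits, among them both scalings at 200 mg/L, and that of HEM13 in 9 of 16.

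In heme synthesis 2 of 8 genes rose and 2 fell at 200 mg/L, where 10% of all genes rose and 7.8% fell. With quantile normalization or median centring 1 rose and 2 fell. HEM14, protoporphyrinogen oxidase of the mitochondrion, read 769, 777 and 657, against 568, 555 and 589 in the IC20 controls (log2 change 0.36, SE 0.065, adjusted p = 0.00313), and HEM2 fell (-0.20, adjusted p = 0.00639). None of the 8 passed at 110 mg/L, with 2 at an unadjusted p under 0.05 in limma, beside 890 of all 5449 genes. In ubiquinone synthesis 0 of 8 measured genes rose and 2 fell at 200 mg/L, COQ1 (-0.21, adjusted p = 0.0443, lost in 8 of 16 alternative fits) and COQ8 (-0.15, adjusted p = 0.0459, lost in 9). The lactate dehydrogenase gene CYB2, which feeds electrons to cytochrome c, read 278, 320 and 320 at 200 mg/L, against 196, 169 and 217 in the IC20 controls. Against these controls the log2 change was 0.66 (SE 0.10, adjusted p = 0.0011 by limma). The controls lie below the highest reading of a deleted locus, and the 200 mg/L arrays below 377.2, the highest of MF(ALPHA)2. The size of the rise is therefore poorly measured. Of 5 carrier and porin genes 1 rose and 0 fell at 200 mg/L, with 3 positive and 2 negative values. The gene that rose was the ADP/ATP carrier gene AAC1 (0.22, adjusted p = 0.0038), lost in 1 of 16 alternative fits, that of the 6 IC20 arrays. PET9, another ADP/ATP carrier gene, had -0.086 and -0.10 (adjusted p = 0.320 and 0.105). With an intensity trend and robust moderation 1 of the 5 rose and 1 fell at 200 mg/L. The 4 genes of cytochrome c maturation and supercomplex factors had 0 calls at either dose. At an unadjusted p under 0.05 in limma they had 0, beside 890 and 1716 of all 5449 genes.

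Enzymes that remove peroxides at the chain included 1 gene that rose at both doses. PRX1, the mitochondrial peroxiredoxin, read 1909, 1686 and 1778 at 110 mg/L, against 1270, 1370 and 1569 in the LOEC controls, and 2157, 2091 and 1973 at 200 mg/L, against 1348, 1389 and 1497 in the IC20 controls. The log2 changes were 0.36 (SE 0.079, adjusted p = 0.0303) and 0.56 (SE 0.079, adjusted p = 0.000738). The call at 110 mg/L was lost in 7 of 16 alternative fits, among them quantile normalization, and that at 200 mg/L in 0 of 16. CCP1, cytochrome c peroxidase, which takes electrons from cytochrome c, rose at 200 mg/L (0.18, adjusted p = 0.0209, lost in 6 of 16 alternative fits). SOD2, the superoxide dismutase of the matrix, had 0.025 and -0.25 (adjusted p = 0.953 and 0.0917), neither past the test.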

How the data were processed

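RNA of 12 cultures was measured on 1-colour biotin-labelled Affymetrix yeast arrays, per the labels' protocols. The authors deposited probe set intensities, which are linear and not logged. The submitters' processing notes list Affymetrix Expression Console without saying what it did, and summarization and normalization are not given in the sources used here. Log2 was taken with no offset. Of 5716 probe sets, 5498 were tied to 1 gene by the platform annotation and 218 to none. Symbols were updated through the RefSeq table (assembly R64, for names and lengths, which include introns). The probe set with the highest mean stood for a gene, giving 5449. Coordinates and sequences are not given, since no build for the array and no sequence table were used here.

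The 12 arrays were fitted with limma 3.58.1 in R 4.3.3, with a mean for each of the 4 groups (8 residual and 2.73 prior degrees of freedom), two-sided, with Benjamini-Hochberg adjustment. The procedure was tested on simulated data, where its pass mark was eased after a first result fell just short of it. Ratios within an array used exact permutation tests. Every member was described, and up to 3 genes per related list with the largest changes past the test were named, beside genes named after their values were seen (SDH1, SDH2, STF2, TIM11, ATP19, HAP1, HAP4, ROX1, MOT3, AAC3, PET9, TIR1, AUS1, DAN1 and SOD2). Members and lists were chosen with earlier results of these data known. The level of the deleted loci and the removal of IC20 control array 3 for COR1 were chosen after seeing the data. Alternatives were other normalizations, moderation, thresholds, filters and offsets, the replicate block, the experiment's 6 arrays alone, removal of the length trend (lowess), and leaving out arrays. The promoter motifs planned were not searched.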

Additional observations from a re-analysis of the deposited data

How the results depend on the processing

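COX5B passed at both doses under all 16 alternatives tried for each, with log2 changes of -0.38 to -0.33 at 110 mg/L and -0.39 to -0.31 at 200 mg/L. Not all of the 16 were able to move a member. Averaging the probe sets of a gene leaves the values of a member, with its 1 probe set, unchanged. Leaving out IC20 arrays does not alter the change at 110 mg/L. The count of members past the test at 200 mg/L, 6 in all, was 1 (COX5B) with only the 6 arrays of the experiment, 3 when both array 2 of the IC20 controls and array 1 of 200 mg/L were left out, and 2 at an adjusted p under 0.01. Leaving out 1 array of the IC20 experiment at a time gave 4 to 5. NDE1 and CYT1 were lost in 2 of 16 alternatives each, COX12 in 5, COX8 in 8 and ATP3 in 10, with 0 changes of sign. With the length trend removed 7 passed, as ATP15 and ATP18 joined and COX8 left, and with an intensity trend and robust moderation ATP15 joined (adjusted p = 0.0336).

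With the replicate number as a block, the count at 200 mg/L was 1, COX5B, and that at 110 mg/L was 1. Same-numbered arrays had correlations of their deviations of -0.32, -0.0098 and -0.13 in the LOEC experiment and -0.61, -0.20 and 0.14 in the IC20 experiment. The differently numbered 200 mg/L array 1 and IC20 control array 2 had 0.648. With 3 arrays a group and deviations that follow gene length in the IC20 experiment, these values cannot show whether cultures were paired.

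The median log2 change of the NADH dehydrogenases was -0.037 at 110 mg/L and -0.00083 at 200 mg/L in the main fit. At 110 mg/L it was -0.091 with quantile normalization and -0.072 to 0.021 with 1 array left out. Complex III at 110 mg/L had a median of -0.054 to -0.0095 with 1 array left out. At the same dose complex IV had -0.029 with median centring and -0.014 to 0.032 with 1 array left out. ATP synthase had -0.0095 with median centring at 110 mg/L. At 200 mg/L the NADH dehydrogenases had -0.11 when those 2 arrays were left out. The NADH dehydrogenases include NDE2, below the level of the deleted loci on all arrays, so these medians of 3 genes do not measure a change. COR1 had 0.024 at 200 mg/L and -0.043 between the controls without IC20 control array 3. The cause of these moves was not tested.

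Over all genes, the share of calls that were higher was 71.6% at 110 mg/L and 56.2% at 200 mg/L, against 54.9% and 46.9% with median centring and 60.7% and 48.7% with quantile normalization. The COX5A to COX5B ratio changed by 0.30 to 0.39 at 110 mg/L and 0.22 to 0.31 at 200 mg/L over 12 alternatives. The difference of responses could not be fitted with 6 arrays only. NDE2 and part of CYC7 lay near the level of the deleted loci, where changes cannot be measured.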

Other observations

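COR1 on IC20 control array 3 was the only reading of its kind. Of the 5046 genes whose next highest reading lay above the level of the deleted loci, 1 had a highest array at least 4 times the next highest, and that gene was COR1. Turned downward, 0 of the 4942 genes whose next lowest reading lay above that level had an array that far below the next lowest. Other complex III genes did not stand apart on that array, with QCR2 at 2970, against 2655 and 2924 on the other IC20 controls, and CYT1 at 2376, against 1998 and 2235.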
